A study of Mus musculus with 24 samples.

Results

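Mouse embryos pass from the 4-cell to the 8-cell stage shortly after activation of their own genome, and the first outward signs of lineage formation, compaction and polarity, appear in the 8-cell embryo. The change between these stages was measured in control embryos by total RNA-seq, in 2 libraries of 4-cell and 2 libraries of 8-cell embryos, chosen by their labels from the 12 RNA libraries analysed here. All 4 libraries came from embryos of superovulated 8-week-old B6D2F1 (BDF1) females mated with B6D2F1 males (the strain field of the labels reads BDF2). Their zygotes had received a scrambled antisense oligonucleotide (ASO) in the male pronucleus and were then cultured in KSOM medium. Each library pooled 30 embryos without zona pellucida. Both stages carry the label 2.5 dpc, so the groups differ in stage and not in the labelled day. By these labels the 4-cell embryos may be the slower ones, so stage and speed of development cannot be told apart. The embryos are thus injected and cultured embryos, and not embryos taken from the uterine tube at each stage. Every count covers a pool, so fewer cells of a type and less RNA per cell cannot be told apart, and the embryos of a pool cannot be told apart either. The injected control oligonucleotide, shown because all 4 libraries share it, has 20 bases.

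scrambled ASO: agcgcgggtattgaaccagg

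At these stages maternal transcripts stored in the oocyte are still being removed while embryonic transcription supplies housekeeping products. Pluripotency factors such as Pou5f1 and lineage regulators of the later trophectoderm (Cdx2, Gata3, the Hippo pathway component Amot) and primitive endoderm (Gata6) are known to begin in this window. Endogenous retroviruses of the MERVL family, a hallmark of the 2-cell stage, decline over the same cleavages.

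The libraries held 28167085 to 34671067 counts, of which repeat families took 19.8% to 22.4%. Values below are CPM, counts as a share of the library total on the usual fixed scale, after TMM scaling, which adjusts library totals for their composition. A feature rose or fell when its adjusted p (Benjamini-Hochberg, edgeR quasi-likelihood test over all 19354 tested features) was under 0.05, and errors of log2 changes are standard errors. The replicates of a stage correlated at r = 0.974 (4-cell) and r = 0.971 (8-cell) across features, against 0.963 to 0.965 between stages. Labels describe the replicates as separate samples without naming separate matings or days, so p-values measure the spread between these samples. All 37 mitochondrial genome entries were listed at 0 in the 12 libraries, so the mitochondrial transcripts were not measurable. Markers of other cells were mostly low. The 19 cumulus and granulosa markers summed to 35.2 to 46.8 CPM, of which Amhr2 alone had a mean of 22.95 CPM, and 7 of the 19 were tested. Whether the Amhr2 reads come from the embryo or from other cells was not tested. The 10 oviduct markers summed to 4.86 to 6.6 CPM and the 14 blood markers to 1.92 to 3.27 CPM. Inha, Inhba, Ptx3, Hbb-bt and S100a9 were at 0 in all 4 libraries. Embryo markers were present in every library, Dppa5a at 119 and 123.5 CPM in the 4-cell and 179 and 167 CPM in the 8-cell libraries. Not all of them were high. On the scale of all 12 libraries Krt8 was at 4.2 to 11.2 CPM and Krt18 at 3.24 to 4.93 CPM, both below Amhr2. Counts of the large ribosomal RNA annotation LSU-rRNA_Hsa made up 4.99% and 4.14% of the 4-cell and 11% and 9.02% of the 8-cell counts. The part of this residual ribosomal RNA in the other results was checked only by leaving out features above 1% of the counts. That gave 128 higher and 198 lower genes at 2-fold, but it does not reach ribosomal RNA reads counted in smaller entries.

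Of 18603 genes tested, 1217 rose (6.54%) and 699 fell (3.76%) from the 4-cell to the 8-cell stage. Most changes were small: 129 genes rose by 2-fold or more (0.693%) and 194 fell by 2-fold or more (1.04%). The 4-cell and 8-cell libraries did not overlap for any of these 323 genes, which describes the calls more than it supports them, since 27.3% of all tested genes had 8-cell libraries above, and 26% below, both 4-cell libraries. Scaling by library size in place of TMM moved the median log2 change of all genes from -0.00 to -0.19 and turned the counts to 479 rising and 1662 falling genes (67 and 400 at 2-fold), so the balance of rises and falls depends on the scaling. Without 4-cell replicate 1 or 2, 261 or 205 genes rose by 2-fold or more. Of the genes that fell by 2-fold or more, 163 of 194 had means under 10 CPM at both stages, against 70 of the 129 that rose by as much and 11396 of all 18603. Over all changes past the test the median level was 24.4 CPM for the 699 genes that fell and 69.8 CPM for the 1217 that rose, against 4.04 CPM for all tested genes.

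**Figure D1:**
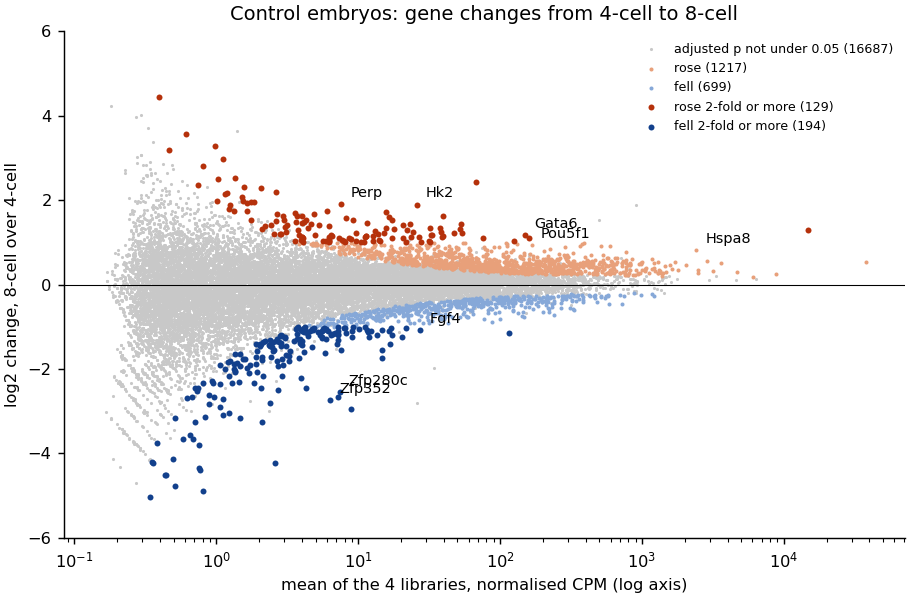
Each point is a gene in control embryos, with the mean normalised CPM of the 4 libraries on a log axis and the log2 change from 4-cell to 8-cell on the vertical axis. Colours mark the 1217 genes that rose and the 699 that fell, darker where the change was 2-fold or more (129 and 194), and the 2-fold calls lie mostly at low levels.

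The share of calls differed with the level. Of 1687 genes with a mean of 100 CPM or more, 30.1% rose and 9.43% fell, but among 5236 genes under 1 CPM these shares were 0.134% and 0.745%.

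The 10 genes with the smallest adjusted p among 2-fold rises were Gata6, Hk2, Lasp1, Mir6236, Tpm4, Vnn1, Amot and the histone genes Hist1h4n, H2bc13 and H3c4. Gata6, a transcription factor of the primitive endoderm, was at 91.1 and 92.9 CPM in the 4-cell and 205 and 209 CPM in the 8-cell libraries. The 8-cell libraries were more than double both 4-cell libraries, a log2 change of 1.17 ± 0.076 (adjusted p = 2.27e-05, edgeR). Hk2, a hexokinase that starts glycolysis (chr6:82725025-82774454, GRCm38), went from 11.8 and 10.2 to 38.9 and 42.7 CPM, a log2 change of 1.89 ± 0.14 (adjusted p = 3.13e-05, edgeR). Lasp1, an actin-binding protein (chr11:97799000-97838764), was at 46.4 and 48.8 CPM and then at 103 and 103 CPM. Its log2 change was 1.11 ± 0.092.

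Tpm4, a tropomyosin of the actin cytoskeleton, rose from 19.5 and 16.8 to 46.7 and 45.8 CPM. Amot, an angiomotin that holds the Hippo effector YAP outside the nucleus, rose from 24.7 and 21 to 50.1 and 58.3 CPM with a log2 change of 1.25 ± 0.13. Vnn1, a pantetheinase, rose from 22.9 and 19.3 to 58.2 and 49.3 CPM. In all 3 genes both 8-cell libraries lay above both 4-cell libraries. Mir6236 rose from 88.2 and 75.5 to 172 and 165 CPM, and the annotation does not show whether its reads come from a mature miRNA. Its log2 change was 1.04, beside a median of 1.04 for the 2 ribosomal RNA repeat entries, which did not pass. Whether ribosomal RNA reads, whose share was also higher in the 8-cell libraries, add to the Mir6236 count was not tested. Among genes with clone-type names, Gm47283 rose from 17.2 and 25.3 to 108 and 119.8 CPM and Gm4961 from 22.6 and 25.8 to 60.5 and 45.9 CPM.

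In absolute level, the largest rises were those of Gm23935, at 31144 and 30788 CPM in the 4-cell and 45000.0 and 45393 CPM in the 8-cell libraries, and of CT010467.1, annotated as a ribosomal RNA gene, at 9522 and 7698 and then 23233 and 18916 CPM. The residual ribosomal RNA share given above was higher in the 8-cell libraries too. CT010467.1 no longer passed with repeat families left out or with a minimum of 10 counts in every library. Rn7sk, the small nuclear RNA that holds the elongation factor P-TEFb inactive, went from 8224 and 7723 to 9781 and 9308 CPM and no longer passed with library-size scaling. The constitutive Hsp70 gene Hspa8 rose from 1814 and 1676 to 3112 and 3054 CPM (log2 change 0.82 ± 0.058), and the Hsp90 gene Hsp90ab1 from 2906 and 3033 to 4101 and 4292 CPM (log2 change 0.50 ± 0.054).

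The 10 genes with the smallest adjusted p among 2-fold falls, clone-type names left out, included Zfp352, Zfp280c and Zfp623. These 3 are named as zinc finger genes. Zfp352, a gene of the 2-cell programme, was at 9.87 and 12.3 CPM in the 4-cell and 1.65 and 1.64 CPM in the 8-cell libraries, a log2 change of -2.74 ± 0.26 (adjusted p = 9.91e-05, edgeR). It no longer passed in the fit of all 12 libraries. Zfp280c went from 13.1 and 12.2 to 2.37 and 1.96 CPM (log2 change -2.54 ± 0.24) and Zfp623 from 29.1 and 28.2 to 11.8 and 12.5 CPM (log2 change -1.24 ± 0.15). For all 3 the 8-cell libraries lay below both 4-cell libraries.

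Apol7b, of the apolipoprotein L family, fell from 20.0 and 11.3 to 1.96 and 2.06 CPM. Ric3, a chaperone of nicotinic receptors, fell from 25.2 and 18.3 to 7.74 and 7.09 CPM. G2e3, a ubiquitin ligase gene, fell from 24.4 and 23.5 to 10.3 and 10.8 CPM. The stages differed by more than the replicates in each. Nat8f2, Vamp1, Colgalt2 and the pseudogene Obox3-ps5 also fell, with log2 changes of -1.41, -1.24, -2.21 and -2.81, as did AU015228 (-2.65) and Gm44736 (-2.45). Obox3-ps5 has near-identical relatives among the Obox genes, so its count is uncertain.

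The largest falls in absolute level were small as folds. Ccdc6 went from 844 and 819 to 569 and 636 CPM, the splicing-associated gene Bclaf1 from 621 and 734 to 487 and 493 CPM, and the kinase gene Wnk1 from 1362 and 1293 to 1087 and 1109.7 CPM. Kmt2c, a histone H3K4 methyltransferase, went from 1270.5 and 1259.8 to 1066 and 1103 CPM. Wnk1 and Kmt2c no longer passed without 8-cell replicate 1, and Kmt2c also not without 8-cell replicate 2. Rif1, a regulator of replication timing, was at 1509 and 1546 and then 1371 and 1303 CPM, with an adjusted p of 0.0555 (edgeR), and passed with library-size scaling.

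**Figure D2:**
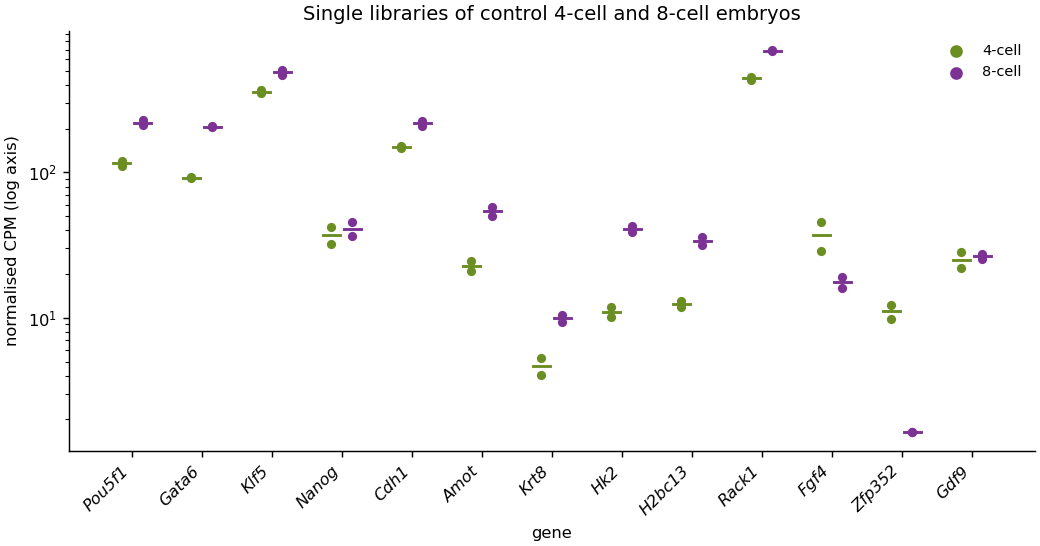
Normalised CPM (log axis) of 13 genes in each control library, green for 4-cell and purple for 8-cell embryos, with a bar at the mean of the 2 libraries. Pou5f1, Gata6, Hk2 and H2bc13 were higher in both 8-cell libraries, Fgf4 and Zfp352 were lower, and the libraries of the stages overlapped for Nanog and Gdf9.

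Replication-dependent histone genes, transcribed in S phase to package new DNA, formed the list with the highest median. Of 66 members in the annotation 57 were tested, 39 rose (against 6.54% of all genes), 0 fell, and 15 rose by 2-fold or more. Their median log2 change was 0.82, beside -0.00 for all tested genes, and 56 of the 57 had a positive change. With library-size scaling 32 still passed upwards and 0 downwards, and without 8-cell replicate 1 the count was 26. At an unadjusted p under 0.05, 44 were higher and 1 lower, and DESeq2 called 38 higher and 0 lower. Their mRNAs end in a hairpin in place of a poly(A) tail, and the libraries were primed with random hexamers, so such RNAs could be captured.

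H2bc13, an H2B gene, was at 11.9 and 13.1 CPM in the 4-cell and 35.9 and 31.8 CPM in the 8-cell libraries. H2bc7 went from 8.21 and 9.71 to 28.1 and 23.5 CPM, a log2 change of 1.53 ± 0.17. H3c4, an H3 gene, went from 19.4 and 21 to 49 and 41.9 CPM. The 8-cell libraries were higher in all 3. Hist1h4n, an H4 gene, went from 29.2 and 30.8 to 81.5 and 68.5 CPM, and the linker histone gene H1f4 from 129.8 and 115 to 211 and 196 CPM. Histone genes of a class are nearly identical in sequence, so counts of single members from unique alignments are uncertain.

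The promoters of 4 histone genes, shown because the members rose together, are given for the 130 bases before the RefSeq start (GRCm38.p6), with CCAAT and TATAAA in capitals on either strand. H2bc13 lies at chr13:21716184-21716313 (minus strand), H2bc7 at chr13:23574208-23574337 (minus), H3c4 at chr13:23575633-23575762 (plus) and H4c12 at chr13:21750554-21750683 (minus). No marked motif is common to all 4.

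H2bc13: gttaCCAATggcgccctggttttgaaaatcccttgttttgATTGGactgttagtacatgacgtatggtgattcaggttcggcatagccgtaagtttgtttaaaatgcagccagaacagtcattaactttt
H2bc7: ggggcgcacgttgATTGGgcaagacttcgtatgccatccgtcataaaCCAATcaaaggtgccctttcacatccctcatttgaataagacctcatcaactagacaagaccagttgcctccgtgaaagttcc
H3c4: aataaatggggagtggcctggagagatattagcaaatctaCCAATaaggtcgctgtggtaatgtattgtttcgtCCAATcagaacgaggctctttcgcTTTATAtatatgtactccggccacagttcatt
H4c12: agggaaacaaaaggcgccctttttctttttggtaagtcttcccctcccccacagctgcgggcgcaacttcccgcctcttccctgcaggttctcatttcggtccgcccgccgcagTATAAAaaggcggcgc

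In the RefSeq window around the start, CCAAT was present in 40 of 45 histone promoters with a sequence (88.9%), against 43.1% of the 11827 promoters of tested genes. TATAAA was present in 29 of the 45 (64.4%), against 9.39% of all. Some of these genes are divergent neighbours that share a promoter, and a match of letters is a description only. The hairpin motif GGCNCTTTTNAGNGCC was searched in the last 100 annotated bases and the next 100, and was found for 32 of 57 histone genes and for 1 of the 18546 other tested genes. It was found for 22 of the 39 that rose and 10 of the 18 that did not pass, shares of 56.4% and 55.6%. The hairpins of H2bc7, H2bc13 and H4c12 are shown as examples, with the loop in capitals, at chr13:23573765-23573780, chr13:21715718-21715733 and chr13:21750150-21750165, all on the minus strand.

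H2bc7 hairpin: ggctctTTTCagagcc
H2bc13 hairpin: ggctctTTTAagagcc
H4c12 hairpin: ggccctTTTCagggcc

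Cytosolic ribosomal protein genes moved together and by small amounts. All 81 were tested, 77 rose and 0 fell, and 0 changed by 2-fold or more. Log2 changes ran from 0.22 to 0.69 with a median of 0.50, and all 81 were positive. With library-size scaling 65 rose and 0 fell, with a median of 0.31. At an unadjusted p under 0.05, 78 were higher and 0 lower, and DESeq2 called 77 higher and 0 lower. Rpl8 went from 539 and 511 to 808 and 802 CPM, Rps2 from 302 and 311 to 468 and 503 CPM, and Rack1, the ribosomal scaffold, from 456 and 429 to 679.7 and 692 CPM. Each of these 3 was higher in both 8-cell libraries. The genes have many processed pseudogenes, so unique alignments may count them incompletely.

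Ribosomal protein mRNAs are known for a pyrimidine tract at their start. A C followed by at least 4 pyrimidines stood exactly at the RefSeq start of 15 of 60 ribosomal protein genes with a sequence (25%), against 3.15% of all. Within 5 bases of the start the shares were 50% and 23.6%. Starts are shown for the 4 genes with such a tract that had the smallest adjusted p, with 15 bases on each side and the tract in capitals, at chr11:48800345-48800374 (Rack1, plus strand), chr17:33955651-33955680 (Rps18, minus), chr2:180257364-180257393 (Rps21, plus) and chr9:120571502-120571531 (Rpl14, plus).

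Rack1: cggaggccgctctttCTTTTTCTCCacagg
Rps18: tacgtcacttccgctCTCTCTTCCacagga
Rps21: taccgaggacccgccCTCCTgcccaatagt
Rpl14: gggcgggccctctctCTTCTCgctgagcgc

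CCGGAAG was present in 41.7% of the ribosomal protein and 42.1% of the proteasome promoters, against 18.3% of all, and in 45.1% of the ribosome biogenesis and 38.3% of the DNA replication promoters, lists in which fewer members rose. Genes that rose and genes that fell held it in 21.3% and 14.7%. Of the other motifs searched on either strand, GGGCGG was present in 63.8% of all promoters of tested genes, 69.7% of those of genes that rose and 67.3% of those of genes that fell. The same shares were 11.1%, 12.8% and 11.8% for CACGTG and 12.4%, 16.3% and 12% for TGACGT. They were 14.7%, 13.8% and 13.1% for GGAATG, 4.22%, 4.04% and 4.82% for AAGGTCA, and 7.2%, 6.99% and 6.43% for GGATTA.

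Other housekeeping lists moved in the same direction with fewer members past the test. The shares that rose were 44.4% (proteasome), 27.8% (oxidative phosphorylation), 27% (endocytosis and lysosome) and 18.8% (ribosome biogenesis). Of all genes with a mean of 100 CPM or more 30.1% rose, and the part of the level in these shares was not tested. For these and the lists below, the shares of all tested genes were 6.54% rising and 3.76% falling. Of 45 proteasome genes 20 rose and 0 fell (median 0.33), led by the regulatory ATPase gene Psmc4, at 71 and 70.3 and then 105 and 104 CPM. Of 79 nuclear oxidative phosphorylation genes 22 rose and 0 fell (median 0.34), among them the cytochrome c oxidase gene Cox6c, at 178 and 166 and then 280.3 and 243 CPM. Of 63 endocytosis and lysosome genes 17 rose and 0 fell (median 0.23), among them the lysosomal prosaposin gene Psap, at 441 and 459.9 and then 643 and 754 CPM, and the endocytic adaptor gene Dab2, at 19 and 14.4 and then 39.6 and 34.1 CPM. Of 96 ribosome biogenesis genes 18 rose and 1, Ddx10, fell (median 0.13), with the nucleolar genes Npm1 at 1559 and 1600.4 and then 1957 and 2083 CPM and Ncl at 2269 and 2178 and then 2612 and 2804 CPM.

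These lists depended on the scaling more than the histone and ribosomal protein lists. With library-size scaling 3 proteasome genes rose and 1 fell, 4 oxidative phosphorylation genes rose and 0 fell, 9 endocytosis and lysosome genes rose and 0 fell, and 1 ribosome biogenesis gene rose and 12 fell. Leaving out 8-cell replicate 1 or 2 left 13 or 12 rising proteasome genes, 11 or 16 oxidative phosphorylation genes and 10 or 8 ribosome biogenesis genes. At an unadjusted p under 0.05 the proteasome list had 1 member lower and the oxidative phosphorylation and endocytosis lists 0, and DESeq2 called 1, 0 and 0 lower.

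**Figure D3:**
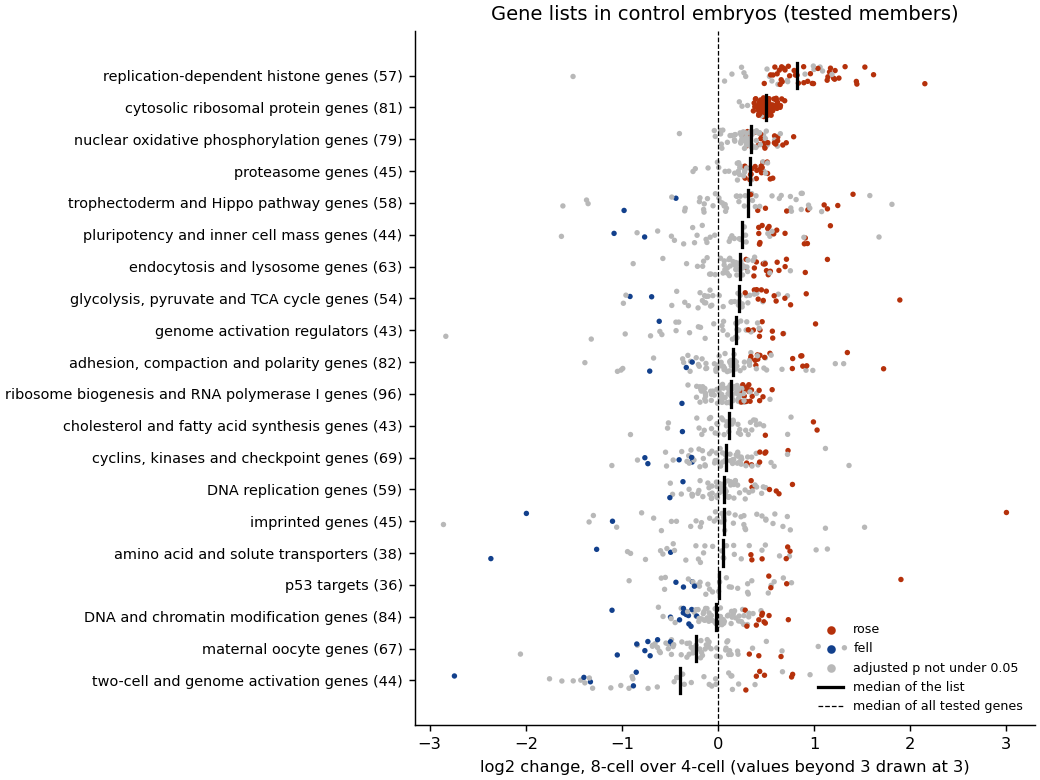
Each point is the log2 change from 4-cell to 8-cell of a tested gene of the list named on the left (tested members in brackets), red where it rose and blue where it fell, with a thick bar at the list's median and a dashed line at the median of all tested genes. Histone genes (median 0.82) and ribosomal protein genes (median 0.50) lie furthest to the right, and maternal (-0.23) and 2-cell genes (-0.40) to the left.

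Of 54 genes of glycolysis, pyruvate and the TCA cycle, 13 rose and 2 fell (median 0.22). Beside Hk2, the pyruvate dehydrogenase phosphatase gene Pdp2 rose from 327 and 386 to 647 and 699 CPM and the subunit gene Pdha1 from 215 and 193 to 299.8 and 311 CPM. The inhibitory kinase gene Pdk1 fell from 13.3 and 13 to 8.88 and 7.46 CPM. The phosphofructokinase gene Pfkl fell from 9.22 and 8.09 to 3.75 and 5.41 CPM, so members of glycolysis moved both ways. With library-size scaling 4 rose and 4 fell, and without 8-cell replicate 2, 8 rose.

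Of 44 pluripotency and inner cell mass genes, 14 rose and 2 fell (median 0.25). Pou5f1 went from 121 and 111 to 228 and 212 CPM, a log2 change of 0.93 ± 0.081 (adjusted p = 6.08e-05, edgeR). Tbx3 rose from 286 and 219.7 to 456 and 493 CPM, Klf5 from 353 and 367 to 469 and 505 CPM and Esrrb from 104 and 107 to 144 and 146 CPM, all transcription factors of the pluripotency network. Both 8-cell libraries were higher for each. Nanog was at 32.1 and 42.1 and then 36.3 and 45.6 CPM with overlapping stages (adjusted p = 0.63, edgeR), and Sox2 stayed low, at 0.326 and 0.232 and then 1.31 and 0.506 CPM (adjusted p = 0.206, edgeR).

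Fgf4, the growth factor that later drives primitive endoderm formation, fell from 29 and 45.7 to 16.1 and 19.1 CPM, and Spry4, a feedback inhibitor of that signal, fell from 62.5 and 52 to 36.2 and 31.2 CPM. Fgf4 no longer passed without 8-cell replicate 1. With library-size scaling 9 of the list rose and 8 fell, and Klf5 no longer passed.

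Of 58 trophectoderm and Hippo genes, 9 rose and 2 fell (median 0.31), and 7 and 4 with library-size scaling, and 16 rose without 4-cell replicate 1. Krt8, a keratin of the first epithelium, went from 4.02 and 5.27 to 9.39 and 10.5 CPM. Gata3, a trophectoderm transcription factor, went from 3.4 and 2.35 to 9.84 and 5.47 CPM and no longer passed without 8-cell replicate 1. Sfn, a 14-3-3 protein gene, rose from 193 and 198 to 320.2 and 322 CPM. Cdx2 was at 1.06 and 0.0663 and then 1.86 and 2.21 CPM (adjusted p = 0.204, edgeR) and passed without 4-cell replicate 1. Tead4, the DNA-binding partner of YAP, was at 214 and 189 and then 267 and 223 CPM (adjusted p = 0.079, edgeR) and passed with DESeq2 and without 4-cell replicate 1 or 8-cell replicate 2. Tfap2c was at 142 and 144 and then 167 and 161 CPM (adjusted p = 0.121, edgeR).

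Compaction depends on E-cadherin and the actomyosin cortex, and of 82 adhesion, compaction and polarity genes 17 rose and 3 fell (median 0.15). Cdh1, the E-cadherin gene, rose from 147 and 152 to 209 and 225 CPM (log2 change 0.54 ± 0.076). The non-muscle myosin gene Myh10 rose from 81.9 and 79.3 to 142 and 133 CPM and the tight junction gene Cldn4 from 46.7 and 38 to 73.4 and 81.5 CPM. Each was higher in both 8-cell libraries. Cited2, a transcriptional co-regulator placed in this list, rose from 6.31 and 8.32 to 19.2 and 28.9 CPM. Epcam, an epithelial adhesion molecule gene, fell from 40.9 and 43.2 to 24.7 and 26.6 CPM, as did the kinase gene Rock1, from 403 and 399 to 303 and 334 CPM. With library-size scaling 7 of the list rose and 6 fell, with a median of -0.04.

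Of 67 maternal oocyte genes 8 fell and 3 rose, against 3.76% and 6.54% of all genes, with a median of -0.23, and 4 fell without 8-cell replicate 2. With library-size scaling 15 fell and 1 rose. Btg4, an adaptor for maternal mRNA deadenylation, fell from 49.8 and 59.6 to 34.5 and 31.4 CPM, and Gpr3, the receptor that keeps oocytes in meiotic arrest, from 27.5 and 29.7 to 16.5 and 15.3 CPM. Nlrp4e fell from 10.0 and 5.07 to 3.72 and 3.61 CPM but passed narrowly (adjusted p = 0.0497, edgeR), and not without 4-cell replicate 1 or either 8-cell replicate. Trim28 and Dppa3, which protect imprints, rose, from 458 and 439 to 608 and 596 CPM for Trim28 and with a log2 change of 0.32 for Dppa3. Gdf9 (28.2 and 21.9, then 25.5 and 27.5 CPM), Zp3 (12.2 and 13.3, then 11.3 and 12.6 CPM) and Nlrp5 (41.1 and 43.3, then 31 and 37.6 CPM) did not pass.

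Of 44 genes of the 2-cell programme and genome activation, 5 fell and 6 rose (median -0.40), and 8 fell and 10 rose without 4-cell replicate 2. With library-size scaling 6 fell and 2 rose. Beside Zfp352, Arg2 fell from 5.06 and 3.28 to 1.69 and 1.49 CPM and Usp17lc from 6.28 and 3.84 to 2.27 and 1.77 CPM, neither of which passed without 4-cell replicate 1 or 8-cell replicate 2. Calcoco2 rose from 611 and 524 to 942 and 1001 CPM. Zscan4c (0.326 and 0.199, then 0.206 and 0.822 CPM) and Duxf3 (0.435 and 0.563, then 0.378 and 0.221 CPM) were under 1 CPM in all 4 libraries and did not pass. Of 43 regulators of genome activation 9 rose and 1 fell (median 0.18), and 3 and 5 with library-size scaling, where the median was -0.01. Klf10 rose from 20.0 and 16.6 to 31.6 and 42.3 CPM, and Klf17 fell from 354 and 451 to 275 and 251 CPM.

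Of 84 DNA and chromatin modification genes 10 rose and 13 fell (median -0.03), and 3 and 26 with library-size scaling. Without 8-cell replicate 1 or 2, 5 or 8 fell. Dnmt3b, a de novo DNA methyltransferase gene, rose from 30.4 and 30.9 to 49.5 and 52.4 CPM, and H3f3a, a replication-independent H3.3 gene, from 348 and 349 to 483 and 476 CPM. The methyl-CpG binding protein gene Mbd1 fell from 6.09 and 4.9 to 2.2 and 2.91 CPM but not without 4-cell replicate 1 or 8-cell replicate 1. Dnmt1 (126 and 142, then 116 and 122 CPM), Dnmt3l (5.46 and 6.76, then 7.12 and 6.39 CPM), Tet1 (323 and 321, then 320.1 and 310.5 CPM) and Tet3 (74.7 and 81.5, then 66.6 and 64.9 CPM) did not pass.

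Among cyclins, kinases and checkpoint genes 7 of 69 rose and 5 fell (2 and 13 with library-size scaling), and without 4-cell replicate 2, 11 rose. The S-phase kinase gene Cdk2 rose from 79.1 and 79.7 to 130.0 and 133 CPM, and the topoisomerase gene Top2a fell from 441 and 434 to 328 and 333 CPM. Of 59 DNA replication genes 6 rose and 2 fell (3 and 7 with library-size scaling), and 3 rose without 8-cell replicate 1. The list was led by the nucleotide enzyme gene Dut, which was at 37.8 and 36.1 and then 61.4 and 53.2 CPM.

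Of 36 p53 targets 4 rose and 4 fell (median 0.01), and 9 rose and 1 fell without 4-cell replicate 2. Perp, a desmosome-associated p53 target, rose from 3.59 and 2.78 to 11 and 12.9 CPM (log2 change 1.90 ± 0.23), and Trp53 itself was at 24.8 and 21.2 and then 22.9 and 17.3 CPM (adjusted p = 0.538, edgeR). Of 38 transporter genes 6 rose and 3 fell, and 2 rose without 8-cell replicate 1. Slc43a2 fell from 7.72 and 7.89 to 3.3 and 3.19 CPM, and Slc1a4 fell from 2.12 and 1.42 to 0.172 and 0.506 CPM but not without 4-cell replicate 1 or 8-cell replicate 1. Of 43 cholesterol and fatty acid genes 3 rose (6.98%, near the share of all genes) and 1 fell (2.33%), none of them upwards with library-size scaling. The phosphatidate phosphatase gene Lpin1 was at 4.62 and 2.78 and then 9.01 and 6.2 CPM. It did not pass with library-size scaling or without 4-cell replicate 2 or 8-cell replicate 1.

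Imprinted genes gave 1 rise and 2 falls among 45 tested, and 6 rises without 4-cell replicate 2. Meg3, a maternally expressed non-coding RNA, fell from 2.28 and 1.42 to 0.55 and 0.38 CPM, and Usp29, a paternally expressed gene, from 18.1 and 26.8 to 11.1 and 9.9 CPM. Meg3 did not pass without 4-cell replicate 1 or 8-cell replicate 2. Mkrn3 rose from 0 and 0.0663 to 0.619 and 0.886 CPM but not with DESeq2, in the fit of 12 libraries or without 4-cell replicate 1 or either 8-cell replicate. Xist, which coats the inactive X chromosome, was at 178 and 333 CPM in the 4-cell and 715 and 753 CPM in the 8-cell libraries. Its 8-cell libraries were higher, but the 4-cell libraries differed from each other (adjusted p = 0.195, edgeR), and it passed with DESeq2, with a non-robust fit and without either 4-cell replicate. Of the markers of other cells 1 rose, the collagen gene Col4a1, from 1.74 and 1.66 to 3.72 and 4.14 CPM, and not without 4-cell replicate 2 or either 8-cell replicate.

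More repeat families fell than rose. Of 751 tested, 143 fell (19%) and 12 rose (1.6%), with a median log2 change of -0.35, and 630 were negative. At 2-fold, 8 fell (1.07%) and 0 rose (0.0%) with edgeR, against 2 that rose with DESeq2 and 3 at an unadjusted p under 0.05. The libraries of the stages were apart downwards for 61.8% of the families and upwards for 6.39%. Without 8-cell replicate 2 the number that fell was 80, and with library-size scaling 267. Repeat counts can include reads from copies inside the introns or exons of other transcripts.

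MERVL-int, the internal part of the MERVL retrovirus, was at 19471 and 16607 CPM in the 4-cell and 11589 and 11341 CPM in the 8-cell libraries, a log2 change of -0.65 ± 0.065 (adjusted p = 0.000264, edgeR). Its LTR MT2_Mm went from 1398 and 1238 to 1009 and 973 CPM, a log2 change of -0.41 ± 0.069. Both were lower in both 8-cell libraries. Of 42 ERVL families 7 fell and 1, MT2B, rose, against 3 and 0 without 8-cell replicate 2. Of 69 ERVL-MaLR families, the class of the maternal MT elements, 27 fell and 0 rose (17 fell without 8-cell replicate 2), and MTA_Mm-int went from 2892 and 3039.6 to 1995 and 1809 CPM.

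Short interspersed elements fell as a group: 11 of 15 B1, 5 of 5 B2 and 4 of 4 B4 families fell and 0 rose. Of the B1 families 5 fell without 8-cell replicate 1 and 6 without 8-cell replicate 2, while the B2 and B4 counts were 5 and 4 without any 1 library. B2_Mm2 went from 9904 and 9265 to 6609.7 and 6922 CPM, a log2 change of -0.50 ± 0.051. Of 114 LINE L1 families 45 fell and 1, L1MdA_VI, rose, from 1191 and 924 to 1645 and 1517 CPM. Without 8-cell replicate 2, 29 L1 families fell, and without 8-cell replicate 1, 0 rose. Young L1 families of the Tf type did not pass, L1MdTf_I being at 115 and 122 and then 121 and 118 CPM.

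Of the 12 rises 8 were in ERVK, the largest class with 269 families, of which 26 fell, beside 2 of 72 in ERV1. Without 8-cell replicate 2, 10 ERVK families rose and 6 fell, and with library-size scaling 7 rose and 85 fell. RLTR45-int rose from 2592 and 2482 to 4854 and 4244 CPM (log2 change 0.84 ± 0.065) and MMETn-int from 692 and 769 to 1034 and 1001 CPM, and of the ERV1 class RLTR1B-int rose from 527 and 563 to 822 and 809.8 CPM. IAPEz-int was at 1415 and 1253 and then 1994 and 1567 CPM (adjusted p = 0.0592, edgeR) and passed with DESeq2, without either 4-cell replicate and without 8-cell replicate 2. The major satellite GSAT_MM was at 21.6 and 21.6 and then 22.8 and 16.7 CPM. The families that fell by 2-fold or more were low, at most 11.3 and 11.3 CPM in the 4-cell libraries for MLTR25C, and the others were Looper (-1.25), MER45R (-1.89), ERVB4_3-LTR_MM (-1.86), MER70B (-2.41), MamRep137 (-1.93), Arthur1 (-1.25) and L1MD (-1.02, all log2 changes). Of these, MLTR25C did not pass without 8-cell replicate 2, Looper not without 8-cell replicate 1, ERVB4_3-LTR_MM not without 4-cell replicate 2 or 8-cell replicate 1, MER70B not when any 1 of the 4 libraries was left out, and MamRep137 not without 4-cell replicate 1 or 8-cell replicate 1.

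**Figure D4:**
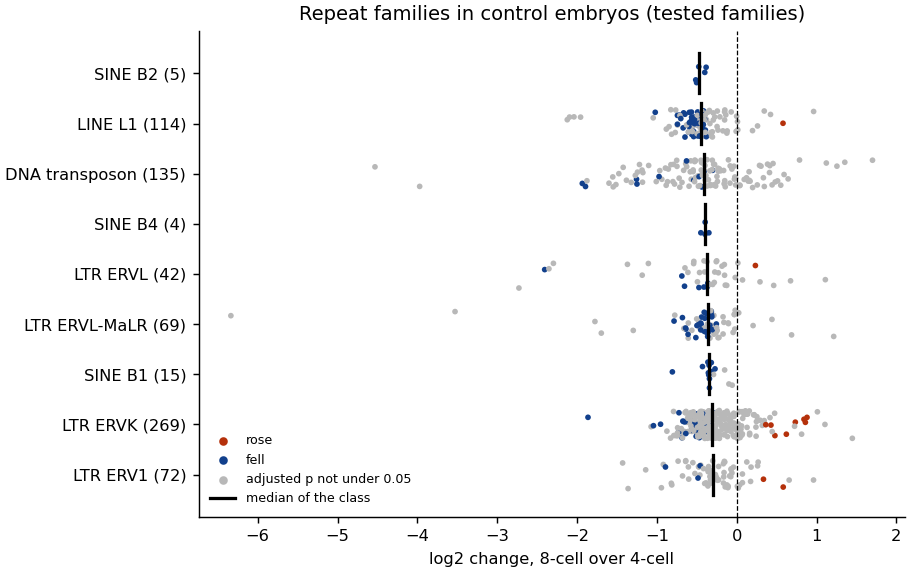
Each point is the log2 change from 4-cell to 8-cell of a tested repeat family in the class named on the left (tested families in brackets), red where it rose and blue where it fell, with a bar at the class median and a dashed line at 0. All classes drawn have a median below 0, from -0.30 (ERV1) to -0.48 (SINE B2), and the rises are mostly ERVK families.

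The same stages in embryos injected with anti-MERVL ASOs (MERVL-KD, 2 libraries each) share no library with the controls. MERVL-int was at 493 and 319.6 CPM in MERVL-KD 4-cell and 277 and 295 CPM in MERVL-KD 8-cell embryos on the scale of all 12 libraries, against 20321 and 17412, then 12222 and 12012 CPM in controls. In the MERVL-KD libraries 172 of 19505 genes rose (0.882%) and 186 fell (0.954%). Of the 129 genes that rose by 2-fold or more in controls, 127 were tested in MERVL-KD embryos, 92 had the same sign and 13 passed in the same direction. Of the 194 that fell, 181 were tested, 140 had the same sign and 13 passed. Both sets were chosen for their control change, which favours fewer passes in MERVL-KD embryos, and same-sign shares over all genes were not measured. The ribosomal protein genes had a median of 0.31 in MERVL-KD embryos with 4 of 81 rising, and the histone genes a median of 0.76 with 19 of 56 rising. The repeat families had a median of 0.02 there.

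The difference itself was tested as an interaction in 8 libraries, over 21271 genes. The change was more positive in MERVL-KD than in control embryos for 22 genes (0.103%) and more negative for 58 (0.273%) by 2-fold or more. Without a fold threshold the numbers were 57 (0.268%) and 78 (0.367%). Genes described in the next paragraphs were chosen for the smallest adjusted p of this interaction, so their passing was fixed by the choice. The interaction subtracts the control change, so genes named for a large control rise are favoured to have a negative difference, and genes named for a fall a positive one. Leaving out a library moved the first count to 67 (MERVL-KD 4-cell replicate 1), 41 (MERVL-KD 8-cell replicate 2) and 11 (MERVL-KD 4-cell replicate 2 or control 8-cell replicate 1), and the second to 103 and 96 without the first 2 of these libraries. Among repeat families 0 differed by 2-fold (0.0% in either direction) with edgeR, 3 did with DESeq2 (all positive) and 32 positive and 3 negative at an unadjusted p under 0.05, and 17 of 793 passed without a fold threshold, all positive (2.14%).

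Perp was at 30.1 and 32.8 CPM in MERVL-KD 4-cell embryos, above the control 8-cell level of 11.6 and 13.7 CPM, and at 17.1 and 23.2 CPM in MERVL-KD 8-cell embryos, a difference of change of -2.55 ± 0.28 on the log2 scale (adjusted p = 0.000922, edgeR). Krt8 was at 24.6 and 28.1 CPM in MERVL-KD 4-cell and 12.6 and 10.0 CPM in MERVL-KD 8-cell embryos, against 4.2 and 5.52 and then 9.9 and 11.2 CPM in controls. Both genes rose in controls, and Krt8 fell in MERVL-KD embryos. Spint1, a membrane protease inhibitor gene, was at 78.4 and 89.5 and then 32.7 and 41.4 CPM in MERVL-KD embryos, against 27 and 32.7 and then 39.8 and 39.5 CPM. Gm10030 and Iars, an isoleucyl-tRNA synthetase gene, also had more negative changes, with differences of -3.80 ± 0.50 and -1.01 ± 0.14.

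Bzw2 did not pass in controls, at 136 and 126 and then 152 and 131 CPM, and rose in MERVL-KD embryos from 23.2 and 18.5 to 48.8 and 50.6 CPM. Anapc10, a subunit gene of the anaphase-promoting complex, was at 99.6 and 106 and then 114 and 122.8 CPM in controls and rose from 23.5 and 18.7 to 48.8 and 55 CPM in MERVL-KD embryos. Bbx and Socs7 had differences of 1.09 ± 0.17 and 1.02 ± 0.15. Parp8 fell in controls, from 155 and 177 to 92.5 and 59.6 CPM, and was at 23 and 21.3 and then 28.5 and 28.3 CPM in MERVL-KD embryos, and its difference did not pass without MERVL-KD 4-cell replicate 2 or MERVL-KD 8-cell replicate 1. For all 5 genes the MERVL-KD libraries were below the control libraries at both stages. MERVL-int did not differ in change beyond the spread (0.14 ± 0.28, adjusted p = 0.909, edgeR).

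**Figure D5:**
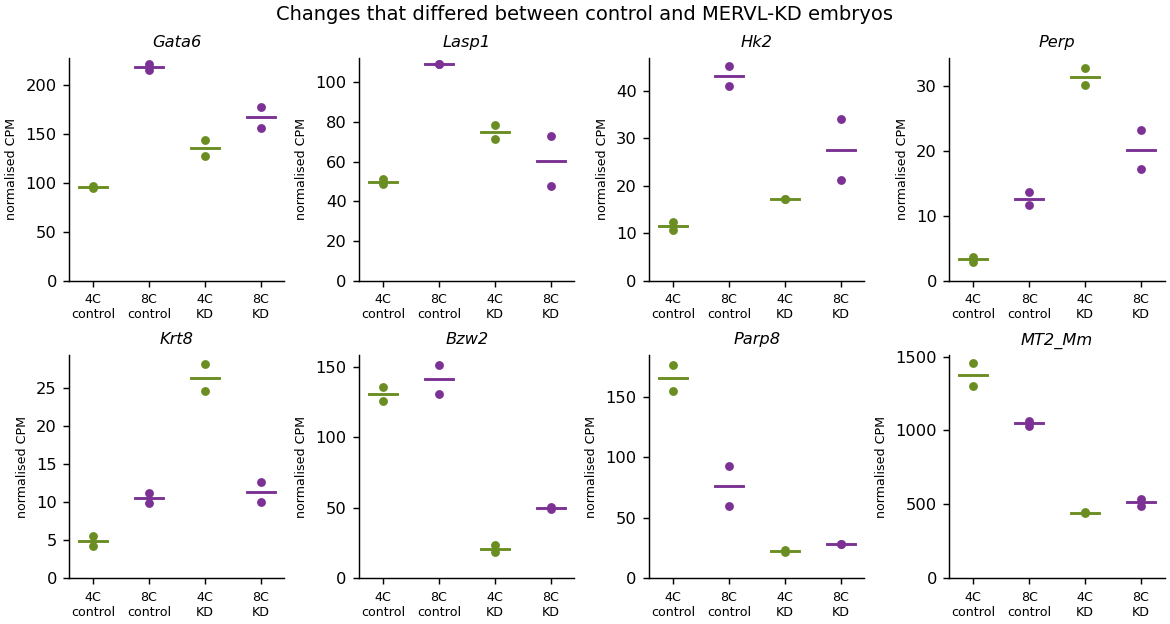
Normalised CPM (axes start at 0) of 7 genes and the MERVL LTR MT2_Mm in each control and MERVL-KD library at the 4-cell (green) and 8-cell (purple) stage, with a bar at the mean of 2 libraries. Gata6, Lasp1, Hk2, Perp and Krt8 rose in the control libraries and the same change was smaller or opposite in MERVL-KD embryos. Each of these genes was already higher in the MERVL-KD than in the control libraries at the 4-cell stage.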

How the data were processed

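Total RNA libraries (SMART-Seq Stranded, random hexamer priming, ribosomal RNA depletion) were sequenced by the authors, who aligned reads with STAR 2.5.3a to GRCm38 and counted unique alignments with featureCounts. The deposited values are raw counts per gene (GENCODE vM25) and per RepeatMasker repeat family. Both mates of a pair were mostly counted, so counts are not independent molecules. The standard errors come from the quasi-likelihood fit, which includes the spread between replicate libraries, and may still overstate the precision.

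Groups were taken from the labels. Features passing filterByExpr were tested with edgeR 4.0.16 (quasi-likelihood, robust, TMM, R 4.3.3) over the 4 control libraries, and p-values were adjusted by Benjamini-Hochberg over all features tested. The difference from MERVL-KD was an interaction over 8 libraries. On simulated counts 183 of 200 changed features were recovered (91.5%), with 2 false calls. Both values describe those counts only. Recovery at the median log2 change of the genes that rose (0.52) or fell (-0.64) in the control libraries was not tested. Alternatives used DESeq2 1.42.0, other scalings, filters and fits, and left out each library.

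Members, gene lists and tests were chosen with earlier results of these data known. The named genes are the 10 smallest adjusted p-values at 2-fold in each direction without clone-type symbols, and the first 2 with such symbols. Also named were the largest differences in level, list leaders and preset genes. Genes with the smallest adjusted p of the interaction in each direction were named too. Further list examples were chosen after their values were seen. L1Md_T and L1Md_A are no family names in the files. Promoters are RefSeq sequences of GRCm38.p6, found for 11827 of 18603 genes. The 2-cell libraries entered only the fit of 12 libraries, and the 12 ATAC-seq libraries were not analysed here.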

Additional observations from a re-analysis of the deposited data

Results flagged for a closer look

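The change from 4-cell to 8-cell differed between MERVL-KD and control embryos (edgeR interaction over 8 libraries, adjusted p under 0.05) for 17 named features. Over all 21271 genes tested, 0.268% passed in the positive and 0.367% in the negative direction. Krt8, Perp, Spint1, Gm10030, Iars, Bzw2, Socs7, Bbx, Anapc10 and Parp8 were named for the smallest adjusted p of this same difference. Their passing was thus fixed by the choice. Values below are the MERVL-KD change minus the control change on the log2 scale.

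Differences were negative for genes among the clearest rises of the controls: Gata6 (-0.87), Hk2 (-1.22), Lasp1 (-1.42), Vnn1 (-1.17) and the clone-named gene Gm23935 (-0.67). These genes were named for their control change, which the difference subtracts, so the choice itself favours negative values, and positive ones for genes named for a fall such as Gm44736. Krt8 (-2.32), Perp (-2.55), Spint1 (-1.58), Gm10030 (-3.80) and Iars (-1.01) were also more negative. At the 4-cell stage Gata6, Hk2, Lasp1, Vnn1, Gm23935, Krt8, Perp, Spint1 and Gm10030 were already higher in both MERVL-KD than in both control libraries. Gata6, for example, was at 144 and 128 against 95.1 and 97.4 CPM on the scale of all 12 libraries. Iars was lower in MERVL-KD than in control embryos at both stages.

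A positive difference was measured for Gm44736 (2.34), which fell in controls. Gm44736 was lower in MERVL-KD than in control embryos at the 4-cell stage and higher at the 8-cell stage. Bzw2 (1.15), Socs7 (1.02), Bbx (1.09), Anapc10 (1.10) and Parp8 (1.50) also had positive differences. Each of these was lower in MERVL-KD than in control embryos at both stages. The LTR MT2_Mm differed by 0.62. Levels at the 4-cell stage differ between the embryos for these features, and their part in the differences was not tested.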

How the results depend on the processing

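Library-size scaling moved most counts: 67 genes rose and 400 fell by 2-fold (479 and 1662 without a fold threshold), and 1 repeat family rose and 21 fell by 2-fold (267 fell without it). Without a fold threshold 1217 genes rose and 699 fell, 12 repeat families rose and 143 fell, and 57 genes had a more positive change in MERVL-KD embryos. With a minimum of 1 count in total 314 genes fell, 1 repeat family rose, and the interaction had 96 positive and 187 negative genes. One fit of 12 libraries gave 766 rising genes, 2 repeat families rising by 2-fold and 34 positive interaction genes. DESeq2 gave 2 repeat families rising by 2-fold and 64 positive and 132 negative interaction genes. A non-robust fit gave 2 repeat families rising by 2-fold, and halved counts or a minimum of 10 counts in every library gave 1.

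Leaving out a library gave 117 to 261 genes rising and 224 to 276 falling by 2-fold, 880 to 1231 and 474 to 696 without a fold threshold, 0 to 3 repeat families rising and 7 to 10 falling by 2-fold, 10 to 17 and 80 to 142 without it, and 11 to 67 positive and 42 to 103 negative interaction genes.

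Changes that did not pass turned direction for Nanog (-0.045 with library-size scaling, -0.035 to 0.355 leaving out each library in turn), Zscan4c (-0.346 to 1.63 leaving out each library), Dnmt3l (-0.045 with library-size scaling), Gdf9 (-0.11 with library-size scaling, -0.087 to 0.281 leaving out each library) and GSAT_MM (-0.364 to 0.081 leaving out each library). The cause was not tested. Named calls were lost in the fit of 12 libraries for 10 features and with DESeq2 for 5, among them Mkrn3 and MER70B in both.

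With replicate numbers as a replicate block, 133 genes rose and 196 fell by 2-fold (1269 and 740 without a fold threshold), 1 repeat family rose and 9 fell by 2-fold (16 and 156 without it), and the interaction had 27 positive and 73 negative genes. Same-numbered samples did not deviate together across features (r = 0.00587 over 19354 features). This correlation cannot show whether same-numbered samples share a mating or a day, which the labels do not name. With counts halved 1253 genes rose and 837 fell, without a fold threshold, over 15629 genes tested in place of 18603.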

Other observations

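Chaperone genes, looked at after the values of Hspa8 and Hsp90ab1 were seen, moved both ways. Hsp90aa1 rose with a log2 change of 0.47 ± 0.056, the Hsp40 gene Dnaja1 with 0.43 ± 0.064 and the chaperonin gene Cct2 with 0.35 ± 0.07. Hspa5, the Hsp70 gene of the endoplasmic reticulum, fell with a log2 change of -0.59 ± 0.083. The mitochondrial chaperone genes Hspd1 (0.03), Hspa9 (0.11) and Hspe1 (0.09) did not pass.

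Genes that fell had longer annotated exons, with a median of 6216 bases, than genes that rose (3445 bases) or all tested genes (3534 bases). Protein coding genes were 92.2% of the typed genes that rose, 86.7% of those that fell and 75.7% of all typed genes tested. Of the 2-fold calls, 25 of 129 rises and 71 of 194 falls had clone-type symbols. The share over all tested genes was not measured, and more of the falls lay at low levels, so these counts are not compared.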
